A study of Rattus norvegicus and Mus musculus with 10 samples.

Results

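The genes described here are the nuclear genes of the respiratory chain, the set of inner mitochondrial membrane complexes that pass electrons to oxygen and make ATP. They were taken by symbol: every gene whose symbol starts with Ndufa, Ndufb, Ndufc, Ndufs or Ndufv (complex I), Uqcr (complex III), Cox4, Cox5, Cox6, Cox7 or Cox8 (complex IV) or Atp5 (ATP synthase), with at least 20 unique molecular identifiers (UMIs, each marking 1 captured RNA molecule) in annotated cells. In rat, 94 genes matched the symbols and 87 reached the minimum, of 12857 genes that reached it in all. In mouse, 89 matched and 84 reached it, of 13133. The rat members were 39 complex I subunits, 9 of complex III, 15 of complex IV, 17 of ATP synthase and 7 complex I assembly factors whose symbols start with Ndufaf. The mouse members were 37, 8, 15, 16 and 8 in the same order.

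The study profiled immune cells at the borders of the brain by droplet single-cell RNA sequencing of transcript 3' ends. The 6 rat libraries came from naive Lewis rats, 25 in the whole study: brain and spinal cord (CNS), pia, dura, choroid plexus, cerebrospinal fluid (CSF) and blood. Leukocytes of the 4 solid tissues were sorted as CD45+CD45iv-, which leaves out cells marked from the circulation, whereas CSF cells were unsorted and blood cells were isolated on a density gradient. The 2 mouse libraries came from skull dura of C57BL/6 mice, 4 pooled unimmunised animals and 3 pooled animals at the peak of active experimental autoimmune encephalomyelitis (EAE), a T cell driven inflammation of the CNS; the labels name no genetic change in either strain and no sort other than the above. A characteristic in the labels names EAE for both mouse libraries, so the titles, which name naive and EAE mice, set the groups. Ages were not in the labels. Each group is 1 library, so no difference below has a replicate check and none is tested; intervals are exact 95% intervals that cover counting error only.

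Complex I takes electrons from NADH, complex III passes them from ubiquinol to cytochrome c, complex IV hands them to oxygen, and ATP synthase uses the proton gradient so built. The nuclear genes supply most subunits, and the mitochondrial genome supplies a few that sit in the membrane core of the same complexes. Resting lymphocytes depend on respiration, mature neutrophils live mainly by glycolysis, and macrophages shift between the 2 with their state. In ordinary tissue the nuclear subunits are thought to be co-regulated in part by the transcription factors NRF1 and GABP, an ETS family protein.

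The libraries differed in depth and in what else they held. The rat libraries held 2272 to 4953 annotated cells with a median of 981 (pia) to 2704 (CNS) UMIs per cell. The naive mouse library held 2776 cells with a median of 4164 UMIs and a lowest cell of 503, and the EAE library 4579 cells with a median of 11743 and a lowest cell of 5722. The members made up 1.48% of all UMIs in CNS, 2.32% to 2.73% in the other 5 rat libraries, 1.93% in naive and 1.87% in EAE mouse dura. Of the rat barcode sequences, 243 occurred in 2 or more libraries, as did 7 in mouse. The CSF library stood apart: 101 genes were over 10-fold above, and 36 over 10-fold below, their level in every other rat library. The same counts were 44 and 9 in CNS, 25 and 33 in blood, 11 and 0 in dura, and 0 and 0 in pia and choroid plexus. Levels are given as CPM, a gene's share of the UMIs of its group. The ribosomal protein gene Rpl35a was at 2888 CPM in CSF and at 0 to 3.28 CPM in the other 5, while the ribosomal protein-like entry Rps18l1 was at 30.9 CPM in CSF and 185 to 1332 CPM elsewhere. These genes were picked after their values were seen, and whether reads of CSF were assigned to genes in another way was not tested.

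Short sequences of the members are given where they show a shared or a distinguishing feature. RefSeq promoters (250 bases before to 50 after the gene start, rat build GRCr8, not the build of the files) matched 72 of the 87 rat members by symbol or synonym. The NRF1 core searched is the 10-base run in capitals in the Atp5i window shown here, which reads the same on both strands. It was present in 6 of the 72 (8.33%) and in 262 of all 27457 rat promoters of that length (0.954%). The ETS core CCGGAAGT, searched with its reverse complement ACTTCCGG, was counted apart from the NRF1 core whether or not the 2 overlapped, and was present in 8 of 72 (11.1%) and in 4.2% of all. The following 30-base windows of the gene strand belong to members whose levels are described below, with the core in capitals. Atp5i encodes a small membrane subunit of ATP synthase (chr14:1464774-1464803, plus strand), Atp5g2 a copy of its rotor ring subunit (chr7:135678255-135678284, minus strand), Uqcrh the hinge subunit of complex III (chr5:134790947-134790976, minus strand) and Cox5b a subunit of complex IV (chr9:46417813-46417842, plus strand).
Atp5i: ttgcgctacgGCGCATGCGCtttcctggct
Atp5g2: ggctctagtcGCGCATGCGCagagccttct
Uqcrh: agtatgccgcACTTCCGGccaggtcgccgg
Cox5b: ctgtctgttcCCGGAAGTgcatctgcttgt
The motif is a match of letters and says nothing of binding, for which there were no data.

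Across rat clusters, the summed level of all members ranged from 12482 CPM (95% interval 12239 to 12730) in the CNS cells of the authors' cluster myeloid 2 to 34562 CPM (33978 to 35153) in natural killer (NK) cells of choroid plexus, over 42 groups of a cluster and a library with at least 50 cells. The lowest 2 groups were both of CNS, myeloid 2 and the microglia cluster micro (14089 CPM, 14008 to 14170, in 2974 cells). Their intervals overlapped neither each other nor that of the next group, CNS myeloid1 (19822 CPM). Of the lymphocytes of the same CNS library, CD4 Tc (CD4 T cells) was at 26468 CPM and NK at 26959 CPM. CNS cells of the B lineage cluster Bc2, left out by the 50-cell minimum, were low: 12308 CPM (11352.3 to 13322.5) in 36 cells. The clusters micro and myeloid 2 outside CNS lay between 21950 and 30094 CPM, the latter in 106 micro cells of dura. T cell and NK groups spanned 26468 to 34562 CPM. Within cluster CD4 Tc the order from CNS (26468) over CSF (26957), blood (27701), pia (28935) and dura (30607) to choroid plexus (33146) had overlapping intervals only between CNS and CSF. The dividing B lineage cluster Bc2 of dura was at 32314 CPM, against 27033 CPM in Bc1 of dura, and its level of the proliferation markers Mki67 and Top2a was 1366 against 161 CPM.

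**Figure D1:**
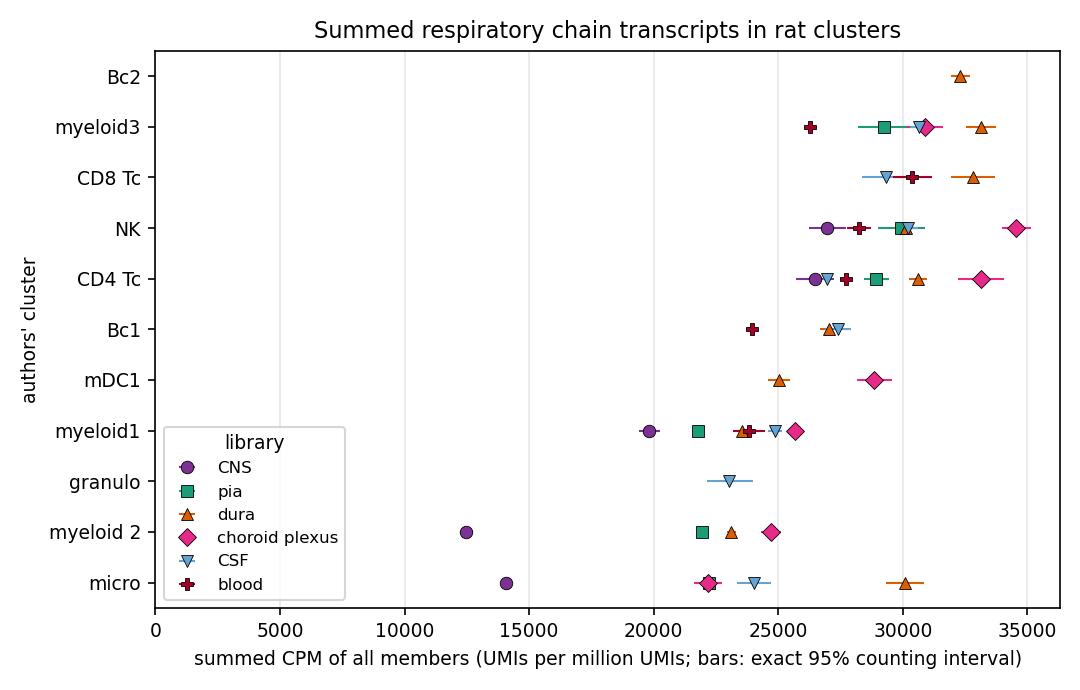
Summed CPM of the 87 rat members (x axis) for each cluster named by the authors (y axis), with symbols for the 6 libraries and bars for exact 95% counting intervals; groups have at least 50 cells. CNS cells of micro (14089) and myeloid 2 (12482) lie to the left of every other group, while CD4 Tc and NK of the same library lie at 26468 and 26959.

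Complex IV members were the highest in rat by CPM, a share of 3' end molecules that is not scaled by length and in which genes can differ in capture. Cox4i1, the common form of subunit 4, had the highest mean over groups, 1449 CPM, with a lowest value of 501 CPM in CNS myeloid 2, 595 CPM in CNS micro and a highest of 2145 CPM in NK of choroid plexus and myeloid3 of dura. The next by mean were Atp5e (1088 CPM), Cox6c (1020 CPM), Cox7c (1013 CPM), Cox6a1 (988 CPM), Atp5l (899 CPM), the main entry of Cox6b1 (882 CPM), Cox8a (871 CPM), Cox5b (653 CPM) and Atp5i (628 CPM). Ndufa4, originally assigned to complex I and since found with complex IV, varied by lineage: from 101 CPM in CNS NK and 181 CPM in blood NK to 1067 CPM in dural micro and 1176 CPM in Bc2 of dura, with CD4 Tc of blood at 838 CPM. Among the 5 members with the widest range, the methyltransferase and assembly factor Ndufaf7 stood at 133 CPM in blood, 97.7 CPM in CSF and 94.8 CPM in dural cells of the monocyte cluster myeloid3, against a median group of 17.5 CPM. In pia and choroid plexus, myeloid3 was at 30.1 and 17.6 CPM, from 3 and 4 UMIs. Ndufaf7 was not particular to myeloid3: a UMI was found in 14 of 93 cells (15.1%) of blood myeloid1. In CSF myeloid3 it was found in 66 of 491 cells (13.4%) and in blood myeloid3 in 217 of 853 (25.4%). Ndufab1, the mitochondrial acyl carrier protein, reached 433 CPM in Bc2 of dura against a median of 125 CPM and 296 CPM in dural micro, the next group. The other wide-range members were the assembly factor Ndufaf3 with a highest group of 111 CPM in Bc2, the iron-sulfur protein Uqcrfs1 with 435 CPM in Bc2, and Cox5a with 1114 CPM in myeloid3 of dura. Rat Atp5g2 ranged from 268 CPM to 873 CPM, the latter in Bc2 of dura, around a mean of 602 CPM. Rat Atp5f1 and Ndufa13 did not exceed 15.9 and 22.8 CPM in any group. They had 159 and 208 UMIs in all annotated rat cells, against 25076 and 28359 in mouse cells. Whether their reads were assigned to genes in full in rat was not tested, so these values are not taken as absence.

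The design sets the same cluster side by side in different compartments, which asks whether cells at the borders differ from their counterparts in the CNS. In myeloid 2, the summed members were at 23114 CPM in dura and 12482 CPM in CNS, a ratio of 1.85 (1.81 to 1.89). The median member was higher by 0.78 on the log2 scale, while the median of all 4997 genes tested (50 or more UMIs over both sides) was -0.13. Of 74 members tested, 49 were higher by 1.5-fold or more and 2 lower, beside 24.7% of all genes higher and 31.8% lower. The same was asked of micro, in 2 comparisons added after the levels had been seen and therefore descriptive: pia over CNS gave a ratio of 1.58 (1.54 to 1.62) and choroid plexus over CNS 1.58 (1.53 to 1.62), with 22208 and 22191 against 14089 CPM. In pia 37 of 81 members were higher and 2 lower, beside 20.2% and 34.6% of all genes. In choroid plexus 37 of 81 were higher and 7 lower, beside 18.3% and 41.8%. The medians of the members were 0.54 and 0.51, and those of all genes -0.18 and -0.36.

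Among the nuclear members, the small accessory subunits had higher summed ratios than the core or large subunits of the same complex. The mitochondrially encoded subunits, which sit in the membrane core, had higher summed log2 ratios still (1.93, 1.83 and 1.47) and are described below. Complex IV, all of whose nuclear members are accessory, stood highest, with a summed log2 ratio of 1.14 in dural myeloid 2 and 0.84 and 0.88 in micro of pia and choroid plexus. There 11 of 12, 10 of 13 and 11 of 13 tested members were higher and 0 lower. The accessory subunits of complex I had log2 ratios of 0.94, 0.67 and 0.56, and the 7 core subunits that bind flavin and iron-sulfur clusters 0.47, 0.14 and -0.03, the last of which became 0.04 under TMM scaling (trimmed mean of M values, which resets library totals) and 0.17 without mitochondrially encoded and ribosomal protein genes in the totals. Complex III split likewise: 0.90, 0.66 and 0.82 for the small subunits, and 0.11, -0.11 and -0.32 for Uqcrc1, Uqcrc2 and Uqcrfs1 together, where the value of -0.11 became 0.10 without those genes in the totals. ATP synthase gave 0.91, 0.78 and 0.73 outside the catalytic head and central stalk and 0.26, 0.26 and 0.45 within them. A change of scaling shifts all members of a comparison alike, so it leaves the gaps between these groups as they are.

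The single members named here are extremes of the same ratios, so they add no separate support to that pattern. Not all follow it, as the accessory Ndufv3 entry given below was among the lowest in choroid plexus. Ndufb4, an accessory subunit of the complex I membrane arm, was at 266 CPM in dural and 77.2 CPM in CNS cells of myeloid 2, a log2 ratio of 1.78. Uqcr11, the smallest complex III subunit, was at 603 and 179 CPM (1.76). Cox7c, a membrane subunit of complex IV, was at 1088 and 351 CPM (1.63). The members lower in dura were Ndufs1, the largest core subunit of complex I, at 15.9 against 29.1 CPM (-0.87), and the assembly factor Ndufaf6 at 13.5 against 21.5 CPM (-0.67), from 40 and 23 and from 34 and 17 UMIs in dura and CNS. In micro, Ndufs6 was at 73.6 CPM in pia and 21.7 CPM in CNS (1.76, from 21 UMIs in pia), and Ndufa2 at 301 and 106 CPM (1.51). Atp5i, with its NRF1 core shown above, was at 578 CPM in pia, 522 CPM in choroid plexus and 181 CPM in CNS (1.67 and 1.53). Uqcrh was at 496 CPM in choroid plexus and 162 CPM in CNS (1.62), and Ndufc1 at 143 and 50.1 CPM (1.51). The lower members of micro were Ndufaf3 (14.02 against 36.5 CPM, from 4 UMIs in pia) and Ndufv1, the NADH-binding subunit (42.0 against 80.7 CPM), in pia. In choroid plexus they were led by Ndufaf7 (3.76 against 17.4 CPM, from 1 UMI), Ndufv3 ENSRNOG00000001182, an entry of a small flavoprotein subunit (26.3 against 91.1 CPM) and Ndufs1 (11.3 against 24.4 CPM, from 3 UMIs). Rat Ndufv3, Uqcrb and Cox6b1 each have 2 entries in the gene list, so their reads may be split and their single values are uncertain.

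The 13 mitochondrially encoded subunits were higher in all 3 comparisons, 13 of 13 by 1.5-fold or more, with median log2 ratios of 1.81, 1.89 and 1.76. Complex II and cytochrome c, outside the symbol rule, had 0 of 5 tested genes higher in each, and medians of 0.05, -0.37 and -0.42. In the tricarboxylic acid cycle 0 of 12, 2 of 14 and 2 of 14 genes were higher and 3, 6 and 10 lower. In glycolysis 0 of 9, 1 of 10 and 1 of 10 were higher and 6, 5 and 7 lower. The mitochondrial ribosome had 17 of 64, 15 of 74 and 10 of 74 genes higher and 7, 17 and 17 lower. Beside these lists, 24.7%, 20.2% and 18.3% of all genes tested were higher and 31.8%, 34.6% and 41.8% lower, in the same order. Cytosolic ribosomal proteins, small abundant mRNAs of another process, also moved: 29 of 72, 77 of 82 and 78 of 81 were higher, with medians of 0.54, 1.58 and 1.67.

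The cells compared were not alike in their markers. The CNS cells of myeloid 2 held all 4 microglia markers, 6616 CPM in sum against 289 CPM in dura, and border macrophage markers (Mrc1, Cd163, Pf4, Lyve1) at 261 CPM with Cd163 at 0, against 7224 CPM in dura. Micro cells of pia and choroid plexus held 4 of 4 microglia markers at 1282 and 1635 CPM against 8616 CPM in CNS, and 4 of 4 border macrophage markers at 2435 and 515 CPM against 3 of 4 at 176 CPM, where Cd163 was at 0. Choroid plexus epithelium markers were at 305 and 2552 CPM against 1.96 CPM, with Kl at 0 in each. The leptomeningeal markers were at 1237 CPM in pia, all of it Ptgds, and at 45.1 CPM in choroid plexus. Dissociation stress genes summed to 11700 CPM in dural and 22765 CPM in CNS myeloid 2. In micro they summed to 15884 CPM in pia, 9000 CPM in choroid plexus and 11681 CPM in CNS. The part of these differences in the members' ratios was not tested.

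**Figure D2:**
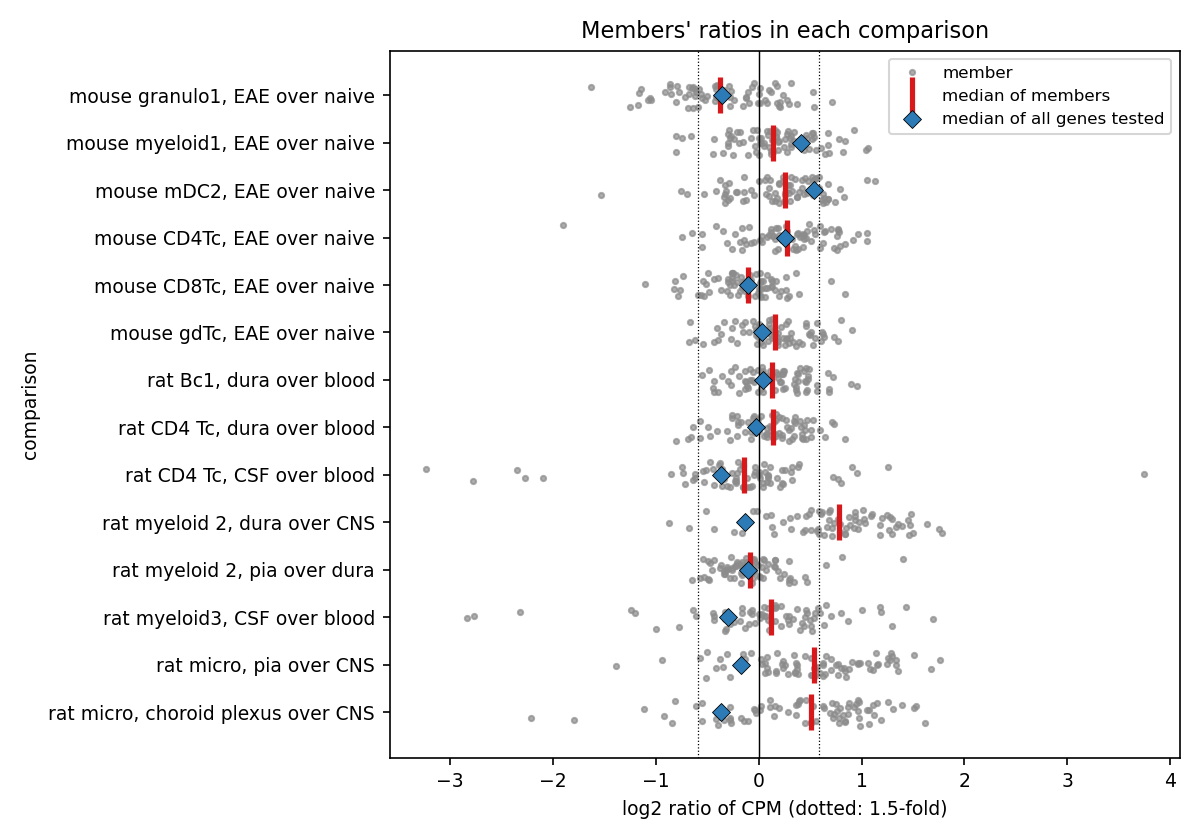
Log2 ratio of CPM of each tested member (grey points, x axis) in each of the 14 comparisons (y axis), with the median of members (red bar) and of all genes tested (blue diamond); dotted lines mark 1.5-fold and points are spread vertically for legibility. Members lie to the right of the all-gene median in the 3 comparisons against CNS (0.78, 0.54 and 0.51 against -0.13, -0.18 and -0.36) and near it in myeloid 2 of pia over dura (-0.09 against -0.11).

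Between the 2 meningeal layers, myeloid 2 differed little: 21950 CPM in pia and 23114 CPM in dura, a ratio of 0.9496 (0.937 to 0.962). Of 76 members 3 were higher in pia and 1 lower, beside 10.8% and 14.4% of all genes. The 3 were Cox6b2, a subunit 6B form known from testis (19.9 against 7.54 CPM, from 31 and 19 UMIs), the assembly factor Ndufaf5 (17.4 against 9.93 CPM) and Ndufs6 (66.2 against 42.1 CPM). The lower member was Uqcrb ENSRNOG00000032204, the minor of 2 Uqcrb entries (10.9 against 17.1 CPM). Ndufs6 was also past 1.5-fold in pia over dura in the other 5 clusters both layers share, with log2 ratios of 0.65 to 1.28 over the 6. It was picked out after its values were seen, as the 1 such member of 69 with at least 20 UMIs in all 6. The share of all genes that did so was not counted. The small negative value became 0.02 on the log2 scale without mitochondrially encoded and ribosomal protein genes in the totals.

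Dural B cells and T cells were set against those of blood. In Bc1 the members were at 27033 CPM in dura and 23927 CPM in blood, a ratio of 1.13 (1.11 to 1.15). Of 76 members 6 were higher and 0 lower, beside 22.3% and 21.5% of all genes; under TMM scaling the counts were 2 higher and 5 lower. Ndufaf3 led (104 against 53.3 CPM), then Ndufb4 (239 against 129 CPM) and Cox7a2l, which takes part in joining complexes III and IV (1027 against 621 CPM). In CD4 Tc the members were at 30607 CPM in dura and 27701 CPM in blood, a ratio of 1.10 (1.09 to 1.12). There 5 of 76 were higher and 4 lower, beside 19.7% and 22.2%, and under TMM scaling 3 and 7. Ndufb4 (287 against 161 CPM), Ndufa5 (265 against 159 CPM) and Ndufa1 (429 against 261 CPM) led, and Ndufv3 ENSRNOG00000001182 (65.8 against 114 CPM) and Ndufaf7 (12.9 against 20.8 CPM) were lowest. Ndufb4 was past 1.5-fold in dura over blood in all 6 clusters those libraries share, at log2 ratios of 0.68 to 1.07, as were 2.26% of 2126 genes. The stress genes were at 3602 CPM in dural and 749 CPM in blood Bc1, and at 6643 and 732 CPM in CD4 Tc. In Bc1 the proliferation markers were at 161 CPM in dura and 7.97 CPM in blood, border macrophage markers at 221 and 27.9 CPM and pDC (plasmacytoid dendritic cell) markers at 842 and 198 CPM. In CD4 Tc the proliferation markers were at 71.2 and 6.76 CPM, border macrophage markers at 156 and 16.9 CPM and innate lymphoid markers at 515 and 107 CPM. The part of these was not tested. In Bc1, 7 of 8 glycolysis genes were lower and 0 higher, and in CD4 Tc 2 of 9 were higher and 0 lower.

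CSF cells were set against blood cells, with the limits of that library given above; the blood CD4 Tc cells are those of the comparison with dura. The summed members of CD4 Tc were at 26957 CPM in CSF and 27701 CPM in blood, a ratio of 0.973 (0.963 to 0.983), and under TMM scaling the log2 value of -0.04 turned to 0.30. Of 78 members 7 were higher and 12 lower, beside 11.5% and 32.8% of all genes, and 13 and 5 under TMM scaling. In myeloid3 the members were at 30666 and 26267 CPM, a ratio of 1.17 (1.15 to 1.19). There 12 of 73 were higher and 9 lower, beside 10.7% and 31.8%, and 18 and 7 under TMM scaling. The CSF cells also held choroid plexus epithelium RNA, with 3 of 3 markers present at 20733 CPM in CD4 Tc and 26481 CPM in myeloid3, against 0 and 4.87 CPM in blood. Its part was not tested.

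Over the 6 clusters shared by CSF and blood, which come from the same 2 libraries and are not independent, 68 members had at least 20 UMIs in every cluster over both sides. Of these 5 were higher in CSF by 1.5-fold or more in all 6 clusters and 3 were lower in all 6, beside 5.18% and 10.5% of the 1834 genes with that many UMIs. Ndufb4 was at 293 to 472 CPM in CSF and 100 to 193 CPM in blood, with log2 ratios of 1.26 to 1.74. Atp5i was at 657 to 992 CPM in CSF and 251 to 478 CPM in blood. Ndufa1, needed for assembly of the complex I membrane arm, was at 446 to 689 and 179 to 412 CPM. Ndufs5 was at 278 to 394 and 128 to 197 CPM, and Cox7a2, the common form of subunit 7A, at 463 to 757 and 247 to 422 CPM. For each of these 5 the lowest CSF cluster lay above the highest blood cluster. Of those 1834 genes, 4.42% were likewise higher in all 6 without overlap.
Lower in CSF were Uqcrc2, a large subunit of complex III (68.6 to 123 against 163 to 205 CPM), Ndufc1 (8.20 to 41.7 against 68.5 to 139 CPM) and the minor entry Cox6b1 ENSRNOG00000034161 (47.1 to 66.4 against 355 to 525 CPM). For these 3 the groups did not overlap either, beside 7.2% of those 1834 genes that were lower in all 6 without overlap. The main entry, Cox6b1 ENSRNOG00000024309, was at 835 CPM in CSF and 774 CPM in blood CD4 Tc. Uqcrb ENSRNOG00000032204, also a minor entry, was at 5.67 and 28.99 CPM in CD4 Tc, and the main Uqcrb ENSRNOG00000024967 at 301 and 283 CPM. Ndufs6, a complex I subunit that helps to place an iron-sulfur cluster, was at 0 to 10.98 CPM in the 8 CSF groups and at 18.5 CPM or more in each of the 34 others. It had 0 UMIs in CSF CD8 Tc (52 cells), granulo (81 cells) and micro (120 cells). A 0 in so few cells does not set a level, so a gap to the other groups is not shown for these. The share of all genes that set CSF apart in this way was not counted. Cox8b, the heart and muscle form of subunit 8, was listed at 0 in blood CD4 Tc and at 19.4 CPM in CSF (65 UMIs in 55 of 1531 cells, 3.59%, exact interval 2.72 to 4.65%), a log2 ratio of at least 3.74 against 3 counts in the blood group. It was found in all 8 CSF groups and 6 of the 7 choroid plexus groups, at 4.38 to 44.3 CPM, and elsewhere in 1 group only, pial myeloid 2 (1.29 CPM, 2 UMIs). The choroid plexus transcript Ttr was at 11273 CPM or more in the CSF groups and 508 to 5670 CPM in the choroid plexus groups. Its part in the Cox8b values was not tested.

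**Figure D3:**
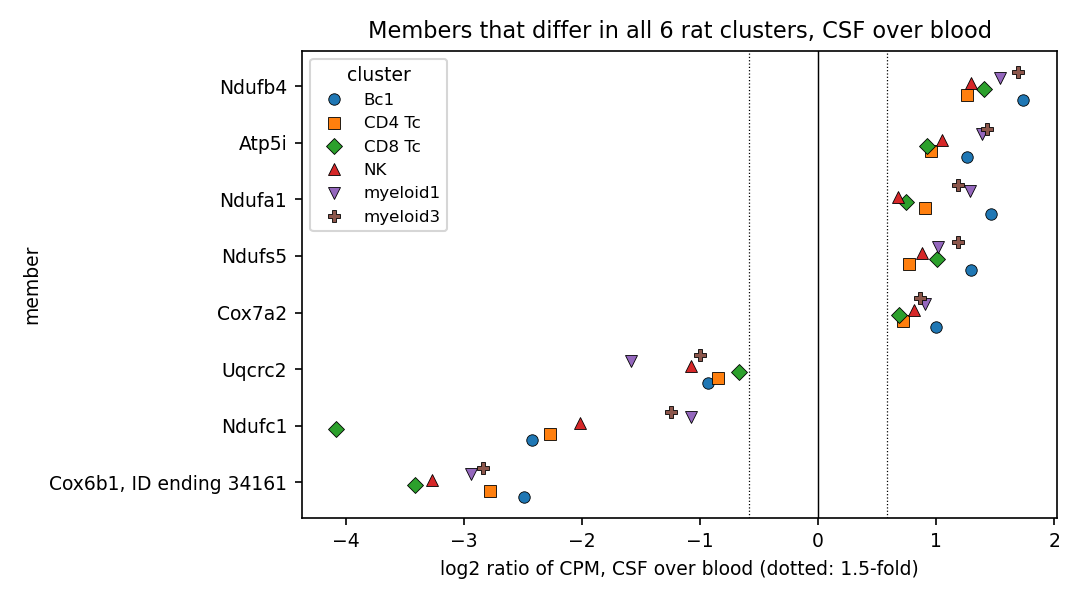
Log2 ratio of CPM in CSF over blood (x axis) for the 8 members past 1.5-fold (dotted lines) in the same direction in all 6 shared rat clusters (y axis; symbols are clusters). Ndufb4 lies between 1.26 and 1.74 and the minor Cox6b1 entry between -3.42 and -2.49.

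In mouse dura the summed members ranged from 8534 CPM (8415 to 8654) in the neutrophil cluster granulo2 of EAE to 29236 CPM (28990 to 29485) in BcProg of EAE, over 29 groups. Neutrophil clusters were lowest in both conditions: granulo2 (8534 CPM in EAE and 8990 CPM naive), granulo1 (10583 and 13894 CPM) and, in EAE, the dividing granuloProli (14431 CPM). Mast cells (14701 CPM) and naive innate lymphoid cells (15619 CPM) followed. In granulo1 the 6 neutrophil markers alone held 404644 CPM in EAE and 263145 CPM naive, which leaves a smaller share for all other genes. Levels without these markers in the totals were not computed, so a low share there need not be a low level per cell. T and NK clusters lay from 18684 CPM (CD8Tc, EAE) to 27740 CPM (regulatory T cells, EAE), and the dendritic mDC1 at 23275 naive and 23590 CPM EAE. The EAE cells called BcProg held B cell markers at 202 CPM against 6135 CPM in naive BcProg. For this reason the name is not taken to describe a B lineage in EAE, and no comparison of EAE with naive BcProg is reported. Their neutrophil markers were at 5882 against 161 CPM. Such levels are not particular to BcProg, as EAE myeloid1 was at 6291 CPM and EAE CD4Tc at 6670 CPM.

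**Figure D4:**
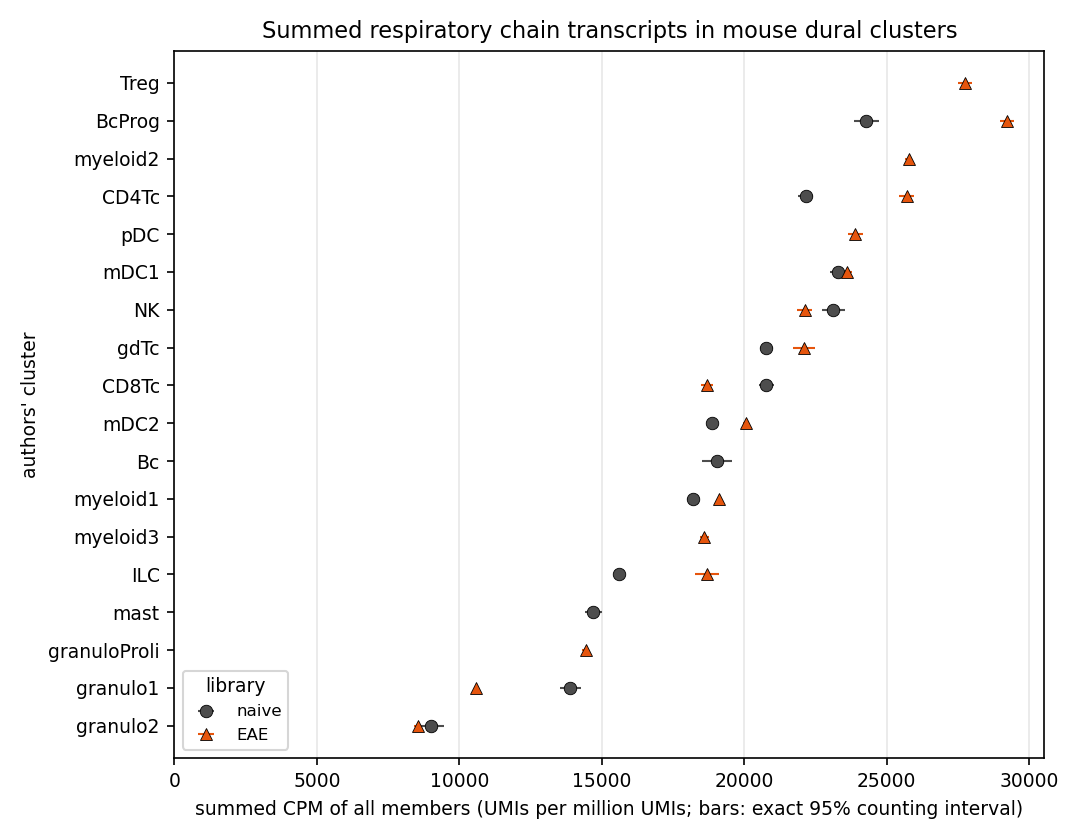
Summed CPM of the 84 mouse members (x axis) by the authors' cluster (y axis) in naive (circles) and EAE (triangles) dura, with exact 95% counting intervals; groups have at least 50 cells. Granulocytes lie at 8534 to 14431 and all T and NK clusters at 18684 or above.

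Of the mouse members, Cox8a had the highest mean, 948 CPM, followed by Atp5e (876 CPM), Cox4i1 (851 CPM), Cox7c (706 CPM), Uqcrh (701 CPM), Atp5h (582 CPM), Cox6c (579 CPM), Atp5l (577 CPM), Atp5g2 (545 CPM) and Cox5b (508 CPM). The 3 genes for the ring subunit of ATP synthase, Atp5g1, Atp5g2 and Atp5g3, encode the same mature protein. In granulocytes all 3 were low as a share, with the limit of the neutrophil markers given above. Atp5g1 was at 28.9 to 120 CPM in the 5 granulocyte groups and at 175 CPM or more in the others, and Atp5g3 at 29.7 to 104 CPM there against 102 CPM or more, the latter overlapping through myeloid3 of EAE. Atp5g2 was at 41.5 to 239 CPM and at 351 CPM or more in the other 24. Of the 59 members with a mean of at least 100 CPM over the groups, 6 were lower in all 5 granulocyte groups than in any other, beside 11.2% of 1264 genes of that level. Cox4i1 was at 433 to 649 CPM there.

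Of the 11 clusters with 50 cells on each side, 6 were chosen, with earlier results known, to set EAE against naive. In granulo1 the summed members were at 10583 CPM in EAE and 13894 CPM naive, a ratio of 0.762 (0.741 to 0.783). The neutrophil markers of granulo1 were at 404644 CPM in EAE and 263145 CPM naive, and their part in this ratio was not tested. There 1 of 74 members was higher and 26 lower, beside 14.3% and 38.6% of all genes, and under TMM scaling 28 were higher and 1 lower. Leaving out naive cells with fewer UMIs than the lowest EAE cell kept 26 of 80 naive cells and gave a log2 value of -0.02 in place of -0.39. In myeloid1 the ratio was 1.05 (1.04 to 1.06), with 11 of 81 higher and 4 lower beside 40% and 7.92% of all genes (3 and 7 under TMM scaling). In the dendritic mDC2 it was 1.06 (1.05 to 1.08), with 15 of 78 higher and 3 lower beside 47.5% and 8.6% (2 and 16 under TMM scaling). CD4Tc gave 1.16 (1.14 to 1.18), with 18 of 75 higher and 3 lower beside 32.6% and 14.2% (6 and 6 under TMM scaling). CD8Tc gave 0.899 (0.884 to 0.915), with 2 of 73 higher and 7 lower beside 11.3% and 19.8%. The gamma delta T cells gdTc gave 1.06 (1.04 to 1.09), with 8 of 73 higher and 3 lower beside 16.5% and 17.3% (3 and 5 under TMM scaling). The members' medians, -0.38, 0.14, 0.25, 0.28, -0.11 and 0.16 in that order, lay beside all-gene medians of -0.35, 0.41, 0.54, 0.26, -0.10 and 0.04. In each of the 6 clusters at least 1 alternative scaling or depth turned the sign of the summed log2 ratio.

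Single members differed by more than the sum. In CD4Tc, Ndufb7, an accessory subunit on the outer side of complex I, was at 454 CPM in EAE and 218 CPM naive (log2 1.06), Cox5a at 782 and 378 CPM (1.05) and Ndufs5 at 260 and 133 CPM (0.97). Ndufa4 was at 168 CPM in EAE and 627 CPM naive (-1.90), the lowest log2 ratio of any tested member in these 6 comparisons, followed in CD4Tc by Ndufaf2 (35.7 against 59.7 CPM) and Ndufa3 (291 against 456 CPM). The naive CD4Tc cells held T cell markers at 1166 CPM against 3726 CPM in EAE and innate lymphoid markers at 1103 against 628 CPM. In myeloid1 the leading members were low: Cox6a2 at 4.71 against 2.25 CPM, from 57 and 4 UMIs, Ndufaf5 at 4.63 against 2.25 CPM, from 56 and 4 UMIs, and Ndufaf3 at 25.6 against 13.5 CPM. Cox6a2 in myeloid1 is read as background on both sides below, so its ratio is not taken as a difference. It is still counted among the higher members of myeloid1. In that cluster Cox6b2 (6.11 against 10.7 CPM), Ndufa4 (204 against 356 CPM) and Ndufaf2 (13.8 against 23.1 CPM) were lowest. In mDC2 Ndufv1 (72.2 against 33.1 CPM), Ndufaf7 (21.0 against 10.1 CPM) and Atp5b, the catalytic beta subunit (377 against 213 CPM), led, with Cox6b2 (11.3 against 32.5 CPM), Ndufa1 (130 against 220 CPM) and Ndufa4 (197 against 318 CPM) lowest. Dendritic cell markers were at 374 CPM in EAE and 1967 CPM in naive mDC2, and their part was not tested. In CD8Tc Ndufv1 (65.8 against 36.9 CPM) and Cox7a2l (538 against 331 CPM) were the 2 higher members, and Ndufaf4 (14.1 against 30.3 CPM), Uqcrb (177 against 313 CPM) and Ndufa3 (196 against 346 CPM) the lowest. In gdTc Ndufa12 (184 against 98.5 CPM), Ndufv1 (84.3 against 48.4 CPM) and Ndufs6 (107 against 62.9 CPM) led, and Ndufa4 (462 against 738 CPM), Ndufa3 (230 against 366 CPM) and Ndufaf4 (19.3 against 29.6 CPM) were lowest. In granulo1 Ndufb7 (339 against 207 CPM) was the higher member and Ndufab1 (19.0 against 58.8 CPM), Ndufaf8 (17.1 against 40.9 CPM) and Ndufa4 (122 against 276 CPM) the lowest.

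Some members went the same way in every cluster, all from the same 2 libraries. Over the 10 clusters with 50 cells on each side other than BcProg, left out after its markers were seen, 0 of 74 members were higher and 0 lower by 1.5-fold or more in all 10, beside 0.706% and 0.788% of 3681 genes. By sign alone 10 of 74 members were above 0 on the log2 scale in all 10 and 5 below, beside 7.69% and 4.73% of those genes. The 7 members given here were chosen after their values were seen. Ndufv1 was above 0 in 10 of 10 and past 1.5-fold in 8, Uqcrc1 in 10 and 7, and Ndufb7 in 10 and 6. Ndufa1, Ndufa3, Uqcrh and Ndufa4 were below 0 in 10 of 10, and lower by 1.5-fold or more in 4, 6, 2 and 6. Under TMM scaling in the 6 comparisons above, Ndufv1, Uqcrc1 and Ndufb7 stayed above 0 in 6 of 6 and Ndufa4 below 0 in 6 of 6, while Ndufa1, Ndufa3 and Uqcrh each turned positive in 1. Without mitochondrially encoded and ribosomal protein genes in the totals, Ndufv1 was above 0 in 5 of 6 and Uqcrh in 2 of 6.

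The mitochondrially encoded subunits moved apart from the nuclear ones. Their summed log2 ratio in EAE over naive was 0.88 in myeloid1, 0.83 in mDC2, 1.06 in CD4Tc, 0.98 in CD8Tc and 1.20 in gdTc, and -0.75 in granulo1. In naive cells with at least 5722 UMIs these values were 0.98, 0.85, 0.98, 0.88 and 0.99, and 0.90 in granulo1, where the sign turned. Under TMM scaling they were 0.61, 0.43, 0.86, 1.09 and 1.05, and -0.03 in granulo1. Glycolysis genes, counted as a list outside the chain, were higher in 14 of 15 in myeloid1, 10 of 14 in mDC2, 13 of 15 in CD4Tc, 4 of 13 in CD8Tc, 6 of 13 in gdTc and 9 of 16 in granulo1, beside 40%, 47.5%, 32.6%, 11.3%, 16.5% and 14.3% of all genes. In the same order 0, 1, 0, 0, 2 and 1 of them were lower, beside 7.92%, 8.6%, 14.2%, 19.8%, 17.3% and 38.6%. In mDC2 their summed log2 ratio of 0.80 became 0.39 under TMM scaling. Tricarboxylic acid cycle genes were higher in 5 of 16, 6 of 16, 2 of 16, 1 of 15, 1 of 13 and 1 of 15 and lower in 1, 1, 2, 0, 2 and 5 in that order. Neutrophil markers, 6 of 6 present in every EAE cluster compared, were at 6291 against 124 CPM in myeloid1, 2935 against 98.1 CPM in mDC2, 6670 against 135 CPM in CD4Tc, 2994 against 164 CPM in CD8Tc and 2960 against 154 CPM in gdTc. Dissociation stress genes were lower in sum in EAE in all 6, for example 3552 against 11390 CPM in CD4Tc. The part of either was not tested.

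Several tissue forms of complex IV subunits were at or near 0 in these immune cells, and Cox6a2 in mouse was the highest of those found. Below the 20 UMI minimum were, in rat, Cox7a1 (0 UMIs), Cox4i2 (18 UMIs), Cox8c (0 UMIs), Cox7b2 (0 UMIs), Cox6c-ps1 (9 UMIs), Ndufa4l2 (2 UMIs) and Ndufa10l1 (1 UMI), and in mouse Cox7b2 (0 UMIs), Cox8b (3 UMIs), Cox8c (2 UMIs), Ndufa4l2 (5 UMIs) and the entry Atp5o ENSMUSG00000116933 (0 UMIs). Mouse Cox4i2 and Cox7a1 passed the minimum but stayed at or below 4.30 and 13.6 CPM in every group. Cox6a2, the heart and skeletal muscle form of subunit 6A, was highest in mouse plasmacytoid dendritic cells (pDC). In EAE pDC it was at 1335 CPM (1272 to 1400; 1707 UMIs) and found in 107 of 126 cells (84.9%, exact interval 77.5 to 90.7%). In naive pDC, a group of 48 cells that misses the minimum of 50, it was at 1936 CPM (1794 to 2085) and found in 45 cells (93.8%, 82.8 to 98.7%). The common form Cox6a1 was at 266 and 337 CPM in the same cells. In EAE granulo1, with a median of 14547 UMIs per cell against 9453 in EAE pDC, a Cox6a2 UMI was found in 24 of 665 cells (3.61%), which is read here as background, as are its 3.20% of cells in EAE and 1.76% in naive myeloid1. Naive BcProg held 243 CPM in 14 of 92 cells (15.2%), naive Bc 51.2 CPM in 5 of 74 cells, EAE BcProg 51.0 CPM in 3 of 74 cells, and naive mast cells 39.0 CPM in 2 of 234 cells. NK cells of EAE were next at 11.3 CPM, and the other groups lower. The markers of pDC (Siglech, Bst2, Ccr9, Tcf4) were present 4 of 4 at 7429 CPM in EAE and 8565 CPM in naive pDC, and at 333 CPM with Ccr9 at 0 in naive BcProg. Neutrophil markers were at 10815 CPM in EAE and 131 CPM in naive pDC. In the 91 rat pDC of all libraries Cox6a2 had 0 of 237928 UMIs, which allows up to 12.6 CPM.

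**Figure D5:**
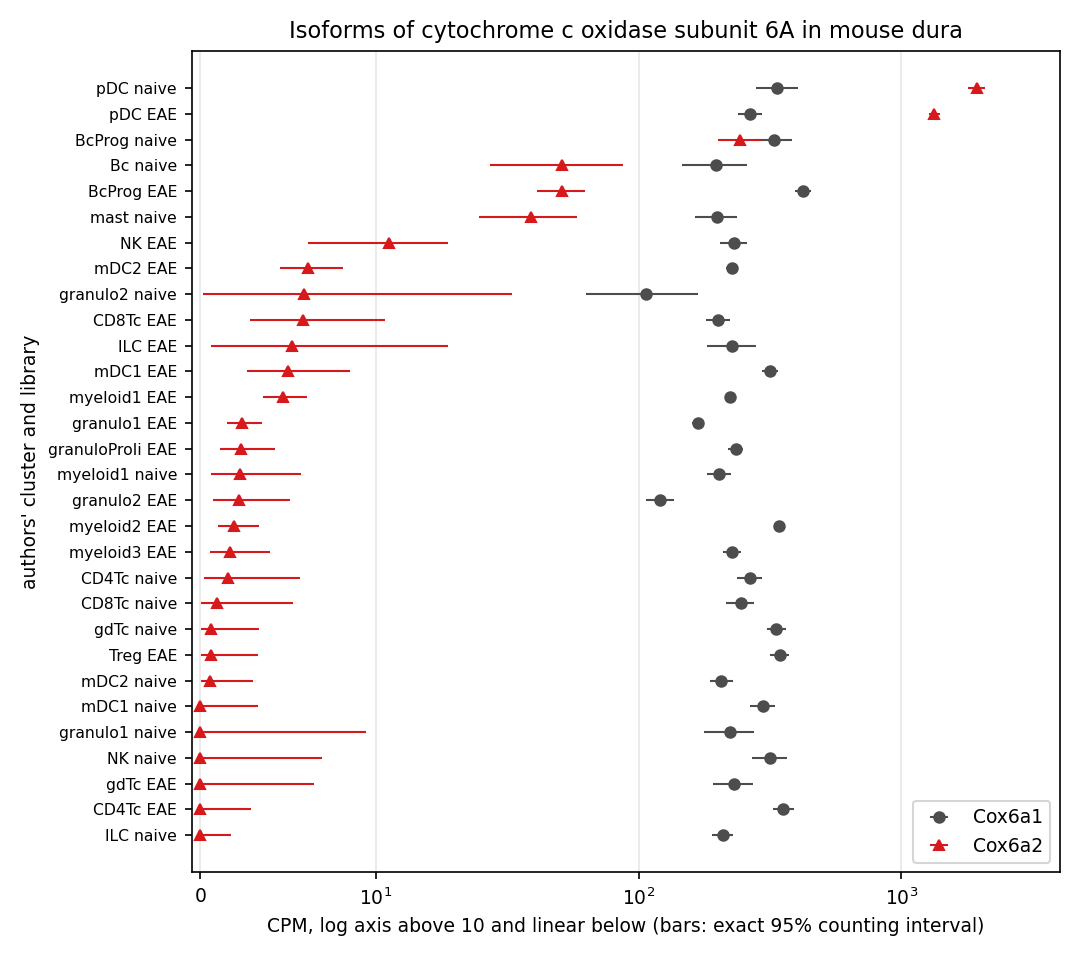
CPM of Cox6a1 (circles) and Cox6a2 (triangles) in mouse groups (y axis: cluster and library, ordered by Cox6a2), with exact 95% counting intervals; the x axis is logarithmic above 10 CPM and linear below, and naive pDC has 48 cells. Cox6a2 is at 1936 and 1335 in pDC and at or below 243 elsewhere, while Cox6a1 is at 107 or above in every group.

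Reads of the 2 forms can be told apart by sequence, as the last 60 coding bases show, stop codon included. They come from the GRCm38 build of the mouse genome (mm10) with GENCODE annotation: Cox6a1, chr5:115345642-115348981, minus strand, 3 exons and 112 residues, and Cox6a2, chr7:128205435-128206387, minus strand, 3 exons and 97 residues. Capitals mark the 20 bases that differ, and 40 are shared.
Cox6a1: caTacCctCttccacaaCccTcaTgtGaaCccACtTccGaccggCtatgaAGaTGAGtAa
Cox6a2: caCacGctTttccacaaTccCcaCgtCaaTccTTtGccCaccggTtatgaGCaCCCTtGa
The differing bases are spread through the whole stretch. Among mouse members with at least 50 UMIs in their highest group, Cox6a2 had the widest range, with a median group at the level read as background, so that no ratio is given. The next, by the highest over the median group, were Cox6b2 at 6.13 times (32.5 CPM in naive mDC2), the complex III subunit Uqcrc1 at 3.01 times (285 CPM in EAE BcProg), Ndufv1 at 2.97 times (158 CPM in EAE BcProg) and Ndufaf2 at 2.75 times (59.7 CPM in naive CD4Tc).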

How the data were processed

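Processed single-cell matrices of 6 rat and 2 mouse libraries were used; the 2 B cell receptor libraries were not analysed here. The authors deposited raw UMI counts per gene and cell, made with Cell Ranger 3.1.0 per the submitters' processing notes (3.0.2 per the header of the rat matrix) on Rnor_6.0 and mm10; the annotation and counting settings are not given in the sources used here. The rat libraries used 10x v2 and the mouse libraries v3 chemistry, per the labels' protocols. Library and cluster of each cell were taken from the authors' deposited annotation, which covers 21187 of 26301 rat and 7355 of 8126 mouse barcodes. No further cell filter was applied and no doublet caller was run.

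Counts were summed per cluster and library and divided by the total UMIs of that group, giving CPM; groups needed 50 cells. The 14 comparisons give the ratio of the members' summed share with an exact conditional binomial 95% interval, and the log2 ratio of each gene with 50 or more UMIs over both sides, called past 1.5-fold. A side with 0 UMIs was set to 3 counts. Shares of cells have exact Clopper-Pearson intervals. With 1 library a group there is no test, and where counts come from pooled animals nothing separates animals. Alternatives were equal weight per cell, a depth minimum per cell, totals without mitochondrially encoded and ribosomal protein genes, members without assembly factors, other gene minimums, and TMM scaling (edgeR 4.0.16 in R 4.3.3). The ratio step was tested on simulated counts. Other tools were Python 3.11.15, numpy 2.4.6, pandas 2.3.3, scipy 1.17.1, Biopython 1.88 and matplotlib 3.10.9.

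The members, gene lists and comparisons were chosen with earlier results of these data known, and the 2 micro comparisons and the check of genes that stand apart by library were added after values were seen. Genes were named by rule: the 3 highest and 3 lowest members past 1.5-fold in each comparison, the 10 of highest mean CPM and the 5 of widest range per species (50 or more UMIs in the highest group), and the tissue forms. Other named members were chosen after their values were seen. A gene that the rule would name is not reported here.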

Additional observations from a re-analysis of the deposited data

Results flagged for a closer look

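The EAE over naive log2 ratio of the members' summed level had opposite signs in some mouse clusters. Each difference rests on the same 2 libraries, which differ in depth, and was not tested. The log2 ratio of granulo1 was lower than that of myeloid1 by a difference of -0.46, than that of mDC2 by -0.48, than that of CD4Tc by -0.61 and than that of gdTc by -0.48. The log2 ratio of CD8Tc was also negative: myeloid1 against CD8Tc differed by 0.22, mDC2 against CD8Tc by 0.24, CD4Tc against CD8Tc by 0.37, and CD8Tc against gdTc by -0.24. Under TMM scaling the sign of granulo1 turned to positive (0.33) and those of myeloid1 (-0.20), mDC2 (-0.32) and gdTc (-0.07) to negative. In cells with at least 5722 UMIs, granulo1 was at 10583 CPM in EAE and 10734 CPM naive, with 26 naive cells kept. The opposition itself thus depends on the scaling, and that of granulo1 also on the depth of the cells kept.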

How the results depend on the processing

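No paired analysis was possible because each group is 1 library, and no replicate could be left out. Values are log2 ratios of the summed members. Under TMM scaling Bc1 dura over blood was 0.0094, CD4 Tc dura over blood 0.0504 and CSF over blood 0.30, myeloid 2 dura over CNS 1.25, myeloid3 CSF over blood 0.33, micro pia over CNS 0.54 and choroid plexus over CNS 0.72; EAE over naive was 0.33 in granulo1, -0.20 in myeloid1, -0.32 in mDC2, 0.0153 in CD4Tc, -0.0468 in CD8Tc and -0.0656 in gdTc. With totals that leave out mitochondrially encoded and ribosomal protein genes, CD4 Tc was 0.0392 (dura over blood) and 0.23 (CSF over blood), myeloid 2 was 0.996 (dura over CNS) and 0.0213 (pia over dura), myeloid3 0.40, micro 0.86 (pia) and 0.86 (choroid plexus), granulo1 -0.50, CD4Tc 0.0316, CD8Tc 0.0532 and gdTc 0.20. With cells weighted equally, myeloid 2 dura over CNS was 0.98, micro choroid plexus over CNS 0.71, granulo1 -0.62 and myeloid1 0.0153. In rat cells with at least 1000 UMIs, Bc1 was 0.27, myeloid 2 pia over dura -0.0423 and micro pia over CNS 0.72. In mouse cells with at least 5722 UMIs, granulo1 was -0.0205, CD4Tc -0.0461 (14 naive cells left), CD8Tc -0.27 and gdTc 0.0559. Leaving out assembly factors moved none of the 14 beyond its counting interval. The 3 comparisons against CNS kept their direction under all alternatives, with 29 to 62 members higher and 0 to 7 lower. Other counts moved by over 1.5 times: higher members ranged over 2 to 12 in Bc1, 3 to 6 in dural CD4 Tc, 1 to 3 in myeloid 2 pia over dura and in CD8Tc, 6 to 13 and 12 to 23 in CSF CD4 Tc and myeloid3, 1 to 28 in granulo1, 3 to 11 in myeloid1, 2 to 17 in mDC2, 6 to 19 in CD4Tc and 3 to 14 in gdTc; lower members over 0 to 5 in Bc1, 2 to 7 in dural CD4 Tc, 0 to 3 in myeloid 2 pia over dura, 5 to 14 and 5 to 12 in CSF CD4 Tc and myeloid3, 1 to 39 in granulo1, 3 to 7 in myeloid1, 2 to 16 in mDC2, 2 to 8 in CD4Tc, 3 to 13 in CD8Tc and 0 to 5 in gdTc. The cause of these shifts was not tested. Depth limits members of a few UMIs in micro of pia and choroid plexus and in granulo2.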
